A study of Mus musculus with 8 samples.

Results

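The endoplasmic reticulum (ER) folds secreted and membrane proteins, and 36 genes of this machinery and of its stress response were read from skin and spleen iNKT cells. They were chosen by name, as genes for folding, glycan trimming, translocation, degradation and stress signalling. All 36 were found among the 22549 genes of the table, and 34 had enough counts to be tested. Invariant natural killer T (iNKT) cells are T cells whose semi-invariant receptor recognises lipids on CD1d. Both groups came from CCR10+/EGFP mice, in which 1 allele of the chemokine receptor gene Ccr10 carries EGFP, so the spleen cells have this allele too. Skin and spleen iNKT cells gave 4 libraries each, numbered 1 to 4 in each tissue. The labels give no treatment, age, sort gate or statement that the libraries came from separate animals, so p-values reflect library-to-library spread alone, possibly of technical origin.

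A polypeptide enters the ER through the Sec61 channel, is bound by chaperones such as BiP, receives disulfide bonds from protein disulfide isomerases and has its sugars trimmed while the lectins calnexin and calreticulin hold it. Proteins that fail to fold are sent back to the cytosol and degraded. When unfolded proteins accumulate, the sensors IRE1, PERK and ATF6 raise chaperone and degradation genes and slow translation, which is the unfolded protein response. In T cells this machinery makes the receptors, adhesion molecules and cytokines of the activated cell.

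Levels are in CPM, counts scaled to one common library size after TMM normalization, and log2 fold changes are skin over spleen from edgeR's quasi-likelihood test on the whole table. A gene is called where its p, adjusted by Benjamini-Hochberg over the 6920 genes tested, is under 0.05. Library totals were 7191131 to 9791973 expected counts. Skin libraries held a count for 5302 to 6012 genes and spleen libraries for 6415 to 10094 genes. Of the 36 genes, 4 to 6 stood at 0 in a skin library and 0 to 9 in a spleen library, the 9 in spleen replicate 1. The 10 T cell and iNKT markers, Cd3e and Zbtb16 among them, had a count in both tissues, with summed levels of 4898 to 6221 CPM in skin, against 5592 to 8233 CPM in spleen. Keratinocyte markers summed to 273 to 1032 CPM in skin, against 0 to 29.5 CPM in spleen. Of the 12 markers, 8 were detected in skin and 3 in spleen. Perp (76.0 to 198 CPM) and Sfn (35.4 to 165 CPM) had a count in every skin library. Krt14 and Krt15 reached 265 and 308 CPM in skin, while Krt1, Dsp, Lor and Trp63 were at 0 in all skin libraries. Immediate early genes, a sign of recent stimulation or handling, summed to 10440 to 21430 CPM in skin. In spleen they summed to 8482 CPM in replicate 4 and 843 to 1377 CPM in the others.

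Promoter windows are shown because some of the chaperone genes share a regulatory element there. RefSeq windows of build GRCm38.p6, from 250 bases before to 50 bases after the annotated start, were available for 31 of the 36 genes in 32 windows; the counts themselves rest on mm9, so these coordinates locate the windows only. The ER stress response element (ERSE), bound by ATF6 together with NF-Y, reads CCAAT and then CCACG with 9 bases of any kind between them, and ERSE-II reads ATTGG and then CCACG with 1 base between them. Both end in the letters CCACG. Both strands were searched. In the windows below the fixed letters of these elements, and of the C/EBP-ATF element TTGCATCA bound by ATF4 dimers, are in capitals; an element on the other strand appears as its reverse complement. Hspa5 and Calr are shown as the called genes with an ERSE, Hsp90b1 for its 2 copies and Herpud1 for its 2 kinds of element.
Hspa5 (chr2:34771840-34772139, + strand): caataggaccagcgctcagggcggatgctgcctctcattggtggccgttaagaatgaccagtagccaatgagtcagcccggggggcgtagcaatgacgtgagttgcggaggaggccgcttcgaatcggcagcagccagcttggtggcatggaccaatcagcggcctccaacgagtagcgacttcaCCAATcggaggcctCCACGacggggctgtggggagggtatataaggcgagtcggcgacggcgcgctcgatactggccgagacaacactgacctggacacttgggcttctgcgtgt
Calr (chr8:84846882-84847181, - strand): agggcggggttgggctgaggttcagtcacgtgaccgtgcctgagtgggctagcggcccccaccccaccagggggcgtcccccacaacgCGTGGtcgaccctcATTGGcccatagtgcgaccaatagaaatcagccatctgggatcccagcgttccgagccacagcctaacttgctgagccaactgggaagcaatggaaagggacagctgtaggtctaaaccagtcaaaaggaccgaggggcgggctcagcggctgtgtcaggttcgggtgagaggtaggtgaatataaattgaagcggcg
Hsp90b1 (chr10:86705395-86705694, - strand): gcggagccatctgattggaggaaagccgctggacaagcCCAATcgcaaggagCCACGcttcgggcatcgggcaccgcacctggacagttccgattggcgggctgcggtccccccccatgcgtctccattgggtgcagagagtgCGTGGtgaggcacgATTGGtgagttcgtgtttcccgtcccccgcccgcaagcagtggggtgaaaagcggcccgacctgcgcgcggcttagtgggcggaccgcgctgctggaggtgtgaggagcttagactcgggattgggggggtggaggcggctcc
Herpud1 (chr8:94386179-94386478, + strand): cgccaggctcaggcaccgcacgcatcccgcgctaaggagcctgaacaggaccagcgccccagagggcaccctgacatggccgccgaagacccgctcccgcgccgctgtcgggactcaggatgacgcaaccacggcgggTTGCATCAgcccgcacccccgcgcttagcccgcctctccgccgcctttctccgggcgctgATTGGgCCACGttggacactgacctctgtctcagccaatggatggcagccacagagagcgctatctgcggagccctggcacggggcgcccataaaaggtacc

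An ERSE was found in 8 of the 32 windows (25%) and in 39 of all 32851 windows (0.119%). The element was defined on promoters of this gene class, Hspa5 among them, so its share is a description of the class. ERSE-II was found in the windows of Herpud1 and Dnajb11, 6.25% of the windows here and 0.0365% of all windows. The C/EBP-ATF element occurred in the Herpud1 window alone of the 32 (3.12%, against 0.895% of all windows). The element TGACGTGG, the core of the site bound by XBP1 and ATF6, was in none of the 32 and in 0.676% of all windows. Its reverse complement starts with CCACG and can overlap an ERSE. The sites of the other genes with an ERSE or ERSE-II, read in the element's own direction with its fixed letters in capitals, differ in the spacer.
Canx (ERSE): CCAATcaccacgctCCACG
Pdia6 (ERSE): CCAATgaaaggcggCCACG
Dnajc3 (ERSE): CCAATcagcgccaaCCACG
Creld2 (ERSE): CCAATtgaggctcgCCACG
Dnajb11 (ERSE-II): ATTGGcCCACG
Syvn1 (ERSE): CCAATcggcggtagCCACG

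**Figure D1:**
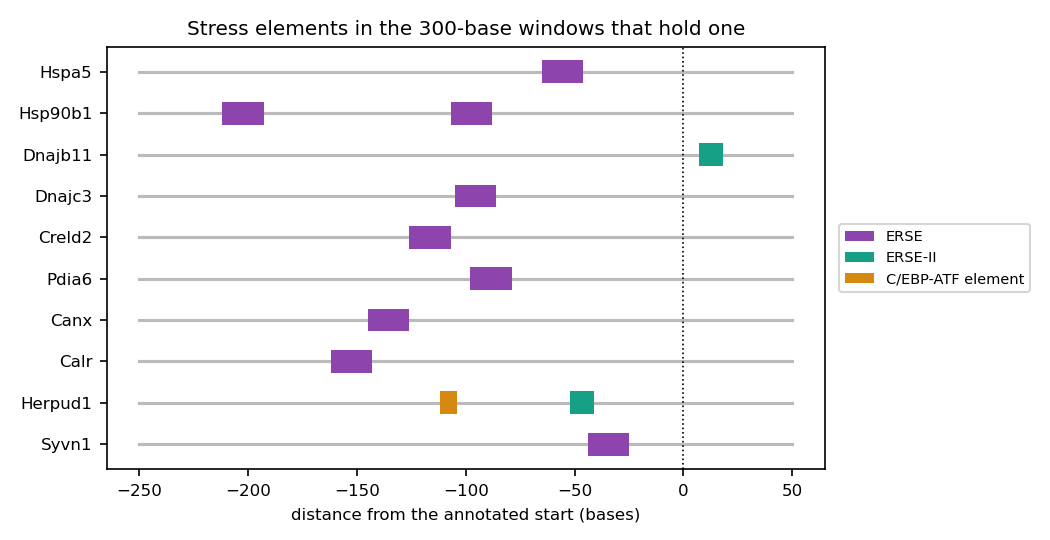
Position of each element (coloured bars, drawn to length) relative to the annotated start (dotted line) in the 10 windows that hold an ERSE or ERSE-II; the x axis is in bases. The Hspa5 element begins 65 bases before the start, that of Calr 162 bases before it, and the ERSE-II of Dnajb11 lies after it.

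The 10 genes with an ERSE or ERSE-II in the window were all tested, and 2 were called higher in skin (Hspa5 and Calr) and 0 lower. Their fitted log2 fold changes were above 0 for 8 of 10, with a median of 0.54. Of the 21 genes with a window and neither element, 19 were tested, with 1 called higher (Atf4), 1 lower (Ganab), 8 above 0 and a median of -0.26. Over all 6920 genes tested, 1.85% were called higher, 3.58% were called lower and 42.2% lay above 0, with a median of -0.29. These medians depend on genes at 0 in single libraries. With the genes limited, after the values were seen, to those detected in 3 or more skin and 3 or more spleen libraries, the median was 0.34 for 9 genes with an element, 0.55 for 13 with neither and 0.02 over all 3943 genes, so the order of the first pair turned round. No match in a window says only that these letters are not in it.

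Of the 36 genes, 34 passed the filter on low counts and were tested. Skin iNKT libraries held more transcript of Atf4, Calr and Hspa5. Atf4 is the transcription factor of the integrated stress response, Calr the soluble lectin chaperone calreticulin and Hspa5 the central ER chaperone BiP. Less was held of Ganab, the catalytic subunit of glucosidase II, which had no count in any skin library. Of the 8 fits that left out 1 library, 2 kept the call of Atf4, 1 that of Calr, 0 that of Hspa5 and 6 that of Ganab. The 3 higher and 1 lower genes of 34 tested stand beside 1.85% called higher and 3.58% called lower, 5.43% in either direction, over all 6920 genes. The other 30 tested genes did not pass. Fitted log2 fold changes were above 0 for 19 and below 0 for 15 of the 34, with a median of 0.23; over all tested genes 42.2% were above 0, with a median of -0.29. With the genes limited as above, the median was 0.32 over the 26 of these genes that remained, against 0.02 over all genes. For 9 of the 36 the tissues had no values in common range: 5 lay above in skin (P4hb, Calr, Atf6, Atf4 and Edem1) and 4 below (Ganab, Derl2, Sec61b and Sec61g), where 6.11% and 13.4% of all tested genes did so. In such bulk libraries a lower share of cells with a transcript and less of it per cell cannot be told apart.

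**Figure D2:**
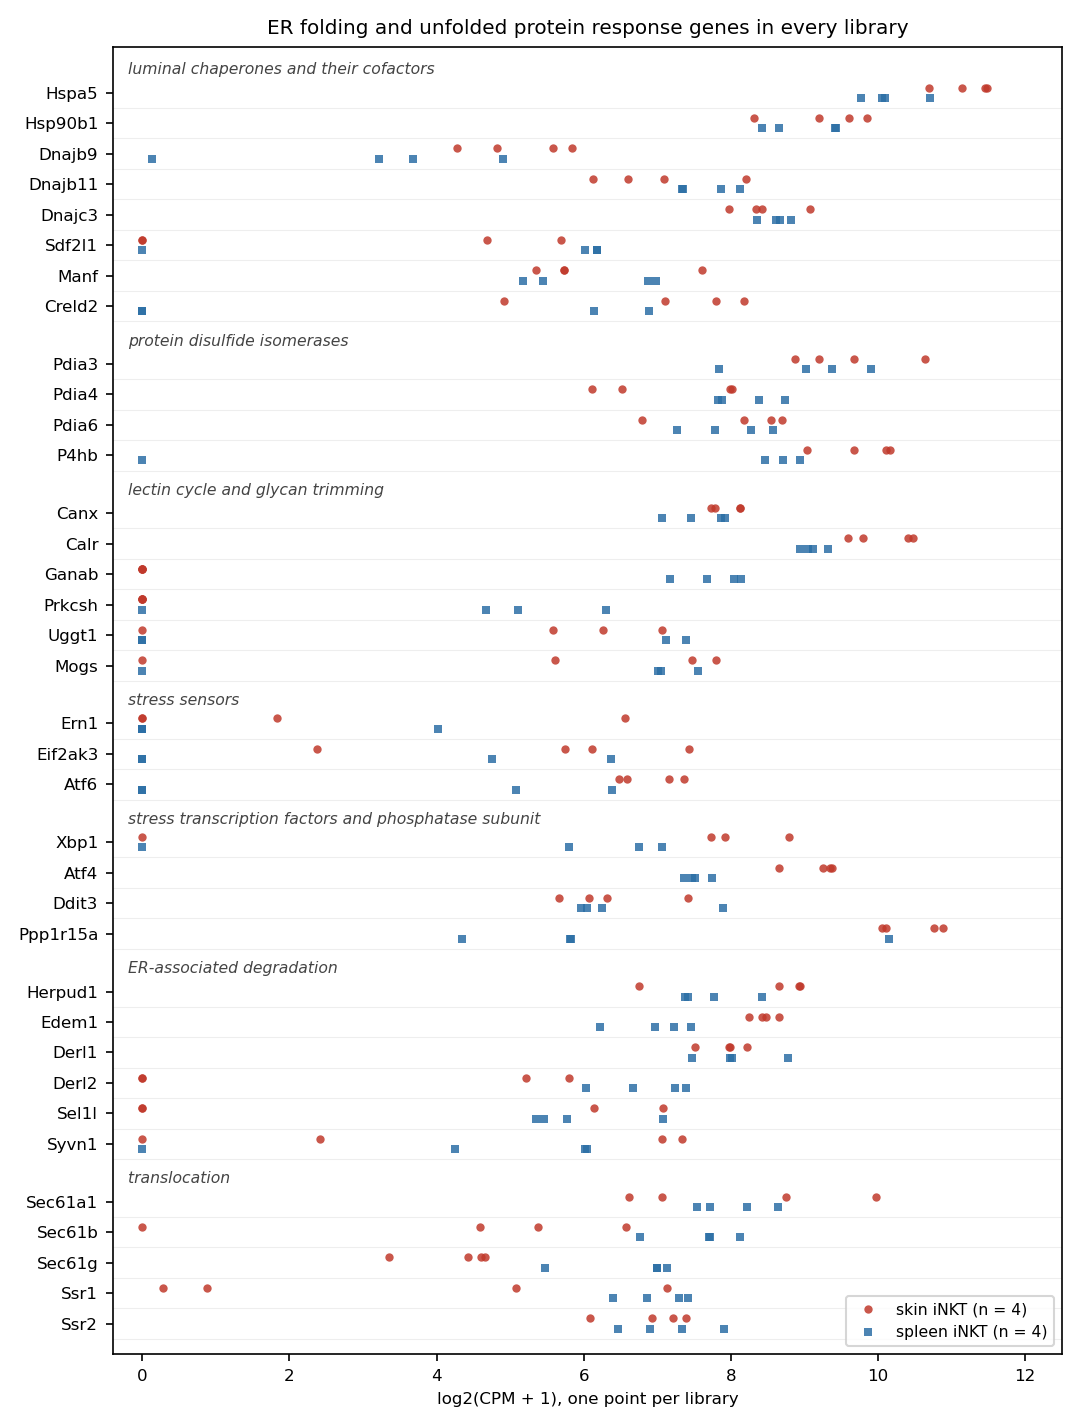
Level of each of the 36 genes in every library as log2(CPM + 1), with skin (red circles) above spleen (blue squares) in each row and the genes grouped by role. Atf4, Calr and Edem1 separate with skin on the right, Ganab and Sec61g with skin on the left, and points at 0 mark libraries without a count.

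Among the luminal chaperones and their cofactors, 1 of 8 rose in skin, 0 fell and 7 did not pass. Over all genes tested, 1.85% were called higher and 3.58% lower. Hspa5 encodes BiP, the Hsp70 chaperone that also keeps the stress sensors inactive. It had 1661, 2254, 2861 and 2814 CPM in skin replicates 1 to 4, against 1066, 873, 1090 and 1673 CPM in spleen replicates 1 to 4. The lowest skin library, replicate 1, lay just under the highest spleen library, replicate 4, so the tissues overlapped at that point. Its log2 fold change was 1.03 ± 0.249 (SE; adjusted p = 0.0498 by edgeR), a 2.04-fold higher level in skin. This p stands at the threshold: the call was lost in each of the 8 fits that left out 1 library (adjusted p 0.0544 to 0.138), while the log2 fold change stayed between 0.89 and 1.25.

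Hsp90b1, the ER paralog of Hsp90 that folds integrins and Toll-like receptors, was not called. It averaged 650 ± 261 CPM in skin, against 529 ± 182 CPM in spleen (SD, n = 4 each; log2 fold change 0.30 ± 0.378, SE). Dnajb9, a J-domain cofactor of BiP and a target of XBP1, stood at 18.5 to 56.6 CPM in skin, against 0.0974 to 29.0 CPM in spleen, and was not called. Creld2, a stress-induced ER protein, was detected in all 4 skin libraries (29.2 to 290 CPM) and in 2 of 4 spleen libraries (69.7 and 117 CPM), also without a call.

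The other cofactors lay close together or scattered within a tissue. Dnajc3, a J-domain protein that also restrains PERK, averaged 363 ± 122 CPM in skin, against 393 ± 50.4 CPM in spleen. Dnajb11, another J-domain partner of BiP, averaged 149 ± 101 CPM in skin, against 208 ± 57.8 CPM in spleen. Manf, a secreted factor that binds BiP, stood at 39.7 to 52.1 CPM in 3 skin libraries and 194.5 CPM in skin replicate 3, against 35.3 to 125 CPM in spleen. Sdf2l1, which works with the J-domain cofactors, was at 0 in 2 skin libraries and 1 spleen library.

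The 4 protein disulfide isomerases gave no call. P4hb, the founding isomerase and a subunit of prolyl 4-hydroxylase, had 1144, 524, 1102 and 817 CPM in skin, against 0, 419, 353 and 490 CPM in spleen. Its tissues did not overlap, and the spleen library at 0 was replicate 1, the one with the most of these genes at 0. The fit gave a log2 fold change of 1.51 ± 1.40 (SE; adjusted p = 0.969 by edgeR). Pdia3, the partner of the lectins and of peptide loading on MHC class I, averaged 865 ± 505 CPM in skin, against 591 ± 302 CPM in spleen. Pdia6 averaged 296 ± 135 CPM in skin, against 266 ± 100 CPM in spleen. Pdia4 was the one isomerase with a fitted value below 0, at 168 ± 102 CPM in skin, against 304 ± 92.9 CPM in spleen (log2 fold change -0.86 ± 0.532, SE; adjusted p = 0.723 by edgeR).

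The lectin cycle held a gene called in each direction. Calr rose: it had 891, 1420, 1352 and 774 CPM in skin replicates 1 to 4, against 492, 556, 526 and 639 CPM in spleen replicates 1 to 4. Every skin library lay above every spleen library, with skin replicates 2 and 3 farthest up. The log2 fold change was 1.0 ± 0.239 (SE; adjusted p = 0.048 by edgeR). Of the 8 fits with 1 library left out, that without skin replicate 4 kept the call (edgeR adjusted p 0.0427 to 0.137 over the 8). Canx, calreticulin's membrane-bound relative calnexin, averaged 247 ± 36.1 CPM in skin, against 195 ± 51.3 CPM in spleen, with a log2 fold change of 0.34 ± 0.374 (SE; adjusted p = 0.998 by edgeR).

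Glucosidase II removes the inner glucoses of the glycan so that the lectins can bind and release their client, and neither of its subunits had a count in skin. Ganab, the catalytic alpha subunit, had 0 CPM in each skin library, against 203, 264, 280 and 143 CPM in spleen replicates 1 to 4. Set against a floor of 3 counts in each skin library, the spleen mean was 574-fold higher (edgeR adjusted p = 0.0109). The floor covers counting error alone, so this fold is not a lower bound on the difference between the cells. The call was lost without spleen replicate 2 (adjusted p = 0.0667) or spleen replicate 3 (0.091) and held in the other 6 such fits, over a range of 0.00916 to 0.091. Among the 913 tested genes that averaged 150 to 300 CPM in spleen, 14% of skin values were 0, and 12 genes (1.31%) had no count in any skin library. Ganab is among these 12. Over all levels, 231 tested genes stood at 0 throughout skin, and such genes made up 182 of the 248 lower calls.

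Prkcsh, the regulatory beta subunit of glucosidase II, also had 0 CPM in each skin library, against 0, 24.4, 77.8 and 33.5 CPM in spleen replicates 1 to 4. It did not pass the filter and was not tested. The other enzymes of the cycle were at 0 in 1 or 2 libraries of each tissue. Mogs, glucosidase I, which takes off the outermost glucose before glucosidase II acts, had 47.8, 176, 0 and 221 CPM in skin, against 131, 0, 128 and 187 CPM in spleen. Its tissues overlapped throughout. Uggt1, which puts a glucose back on misfolded glycoproteins, was at 0 in 1 skin library and 2 spleen libraries and reached 132 CPM in skin, against 167 CPM in spleen.

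**Figure D3:**
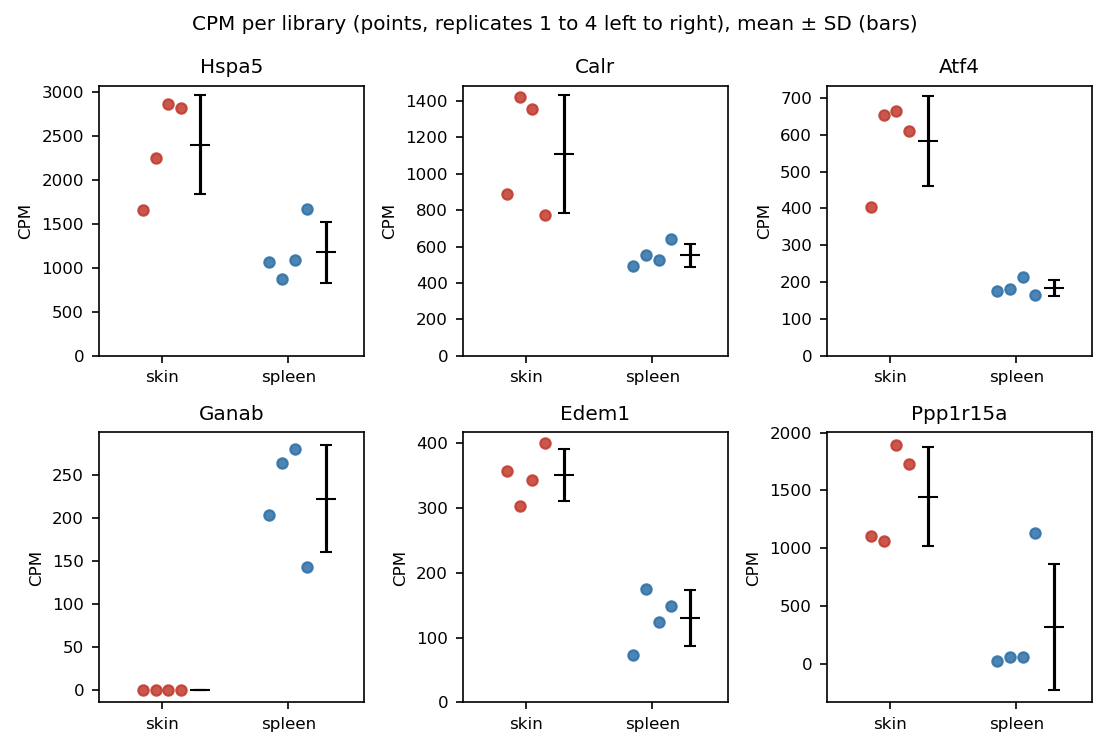
CPM of 6 genes in each library (points, replicates 1 to 4 from left to right) with the mean and SD (black), skin on the left of spleen; the y axis is linear and its range differs by gene. Atf4, Calr and Edem1 do not overlap, Hspa5 overlaps at 1 library per tissue, Ganab is at 0 in skin, and Ppp1r15a is high in spleen replicate 4 alone of the spleen libraries.

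None of the 3 stress sensors was called. Atf6, a membrane-bound factor released by cleavage, had 88.4, 95.5, 163 and 142 CPM in skin, against 0, 0, 32.9 and 82.2 CPM in spleen. The tissues did not overlap, but the spleen values ran from 0 to just under the lowest skin value, and the log2 fold change was 2.09 ± 2.15 (SE; adjusted p = 0.996 by edgeR). Eif2ak3, which encodes PERK, the kinase of eIF2alpha, had 52.5, 68.3, 4.20 and 172 CPM in skin, against 0, 81.4, 0 and 25.9 CPM in spleen. Ern1, which encodes IRE1alpha, was at 0, 0, 93.7 and 2.54 CPM in skin, against 0, 0, 0 and 15.2 CPM in spleen, and was not tested.

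Downstream of the sensors, Atf4 rose. It had 403, 653, 665 and 610 CPM in skin replicates 1 to 4, against 177, 182, 214 and 164 CPM in spleen replicates 1 to 4. The lowest skin library, replicate 1, lay clear above the highest spleen library. The log2 fold change was 1.66 ± 0.267 (SE; adjusted p = 0.0154 by edgeR), a 3.16-fold higher level. ATF4 protein is set mainly by translation of its mRNA, which these counts do not measure. The call held without skin replicate 1 and without skin replicate 4, and was lost without each of the other 6 libraries (adjusted p 0.012 to 0.0659 over the 8 fits), with a log2 fold change of 1.55 to 1.77.

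Ddit3, which encodes the pro-apoptotic factor CHOP and is a target of ATF4, was not called: it had 170, 49.9, 78.9 and 66.2 CPM in skin, against 236, 75.2, 64.7 and 61.2 CPM in spleen. The highest library of each tissue was its replicate 1, and the fit gave -0.26 ± 0.930 (log2, SE; adjusted p = 0.998 by edgeR). Xbp1, whose mRNA IRE1 splices into the active form, had 0, 211, 241 and 442 CPM in skin, against 0, 106.5, 54.6 and 132 CPM in spleen. Gene counts do not separate its spliced form, and it was not called.

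Ppp1r15a encodes GADD34, which returns eIF2alpha to its unphosphorylated state, and it is also induced as an early response gene. It had 1105, 1060, 1895 and 1729 CPM in skin, against 19.3, 55.5, 55.6 and 1131 CPM in spleen. Of the spleen libraries 3 lay far below skin, and spleen replicate 4, which also had the highest summed immediate early genes of the spleen libraries, lay within the skin range. With all 8 libraries it was not called (log2 fold change 2.20 ± 1.2, SE; adjusted p = 0.576 by edgeR). Without spleen replicate 4 it was called, at a log2 fold change of 5.06 (edgeR adjusted p = 0.0034; 0.0034 to 0.897 over the 18 alternatives). The part of handling or recent stimulation in this pattern, and in those of Atf4, Hspa5 and Calr, was not tested. In spleen replicate 4 Atf4 had its lowest value of the 8 libraries, 164 CPM. Hspa5 had its highest spleen value there (1673 CPM, against 873 to 1090 CPM in the other spleen libraries). Calr did too (639 CPM, against 492 to 556 CPM), as did Slc3a2 (306.5 CPM) and Cebpb (156.5 CPM), described further on. Tmbim6 and Edem1, also described further on, had 97.1 and 149 CPM there and were highest in spleen replicate 2 (149 and 175 CPM). Spleen replicate 4 also held a count for the most genes of the 8 libraries, 10094.

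Of the 6 degradation genes 0 were called. Edem1, a lectin that extracts misfolded glycoproteins for disposal, came closest, with 357, 304, 343 and 400 CPM in skin, against 73.4, 175, 124 and 149 CPM in spleen. The tissues did not overlap, and the skin libraries lay close together. The log2 fold change was 1.43 ± 0.385 (SE; adjusted p = 0.0694 by edgeR). DESeq2 (adjusted p = 0.00158) and limma-voom (0.0237) called it, and its adjusted p reached 0.355 over the 18 alternatives. Herpud1, a stress-induced scaffold of the degradation complex, had 492, 106.5, 484 and 403 CPM in skin, against 170, 165, 342 and 216 CPM in spleen, with skin replicate 2 below every spleen library.

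The 4 membrane components of the degradation machinery were not called. Derl2, a derlin that helps move clients out of the ER, had 54.5, 0, 0 and 36 CPM in skin, against 167, 101, 64.1 and 151 CPM in spleen. The tissues did not overlap, with 2 skin libraries at 0 (log2 fold change -2.41 ± 2.16, SE; adjusted p = 0.955 by edgeR). Derl1, its relative, averaged 246 ± 47.5 CPM in skin, against 281 ± 110 CPM in spleen. Syvn1, the ubiquitin ligase HRD1, ranged from 0 to 160 CPM in skin, against 0 to 64.8 CPM in spleen. Its adaptor Sel1l had 134, 0, 69.5 and 0 CPM in skin, against 134, 43.2, 39.8 and 53.7 CPM in spleen.

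Translocation genes had the lowest median of the 7 roles, at -1.60 over 5 tested genes, and 0 were called. Sec61g, the gamma subunit of the channel, had 9.23, 20.5, 23.4 and 24.2 CPM in skin, against 43.4, 126, 140 and 126 CPM in spleen. Every skin library lay below every spleen library (log2 fold change -2.49 ± 1.18, SE; adjusted p = 0.465 by edgeR, and 0.00453 to 0.903 over the 18 alternatives, with a call by DESeq2). Sec61b, the beta subunit, had 23.0, 94.6, 40.6 and 0 CPM in skin, against 107, 277, 208 and 209 CPM in spleen, again without overlap and without a call (edgeR adjusted p = 0.759). Sec61a1, which encodes the pore-forming subunit, was not called either, with 96.7, 999, 430 and 133 CPM in skin, against 186, 210, 297 and 398 CPM in spleen. Its skin values spanned the spleen values on both sides.

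Ssr1 and Ssr2 encode the alpha and beta subunits of the translocon-associated protein complex, which helps some signal sequences through the channel. Ssr1 had 32.7, 0.220, 139 and 0.847 CPM in skin, against 116, 156, 169 and 83.4 CPM in spleen. Ssr2 averaged 125 ± 43.3 CPM in skin, against 151 ± 65.5 CPM in spleen. The median length of the coding transcripts in GENCODE is 430 bases for Sec61b and 754 bases for Sec61g. It is 569 bases for Ssr2, whose log2 fold change was -0.27, 1718 bases for Ssr1 (-1.60) and 3172 bases for Sec61a1 (0.61). Over all 919 tested genes with a median length up to 800 bases the median log2 fold change was -0.64, and 30.1% lay above 0. It was -0.35 from 800 to 1600 bases (1752 genes), -0.17 from 1600 to 3200 bases (2438 genes) and -0.14 above that (1610 genes). The part of transcript length in the values of Sec61b and Sec61g was not tested.

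**Figure D4:**
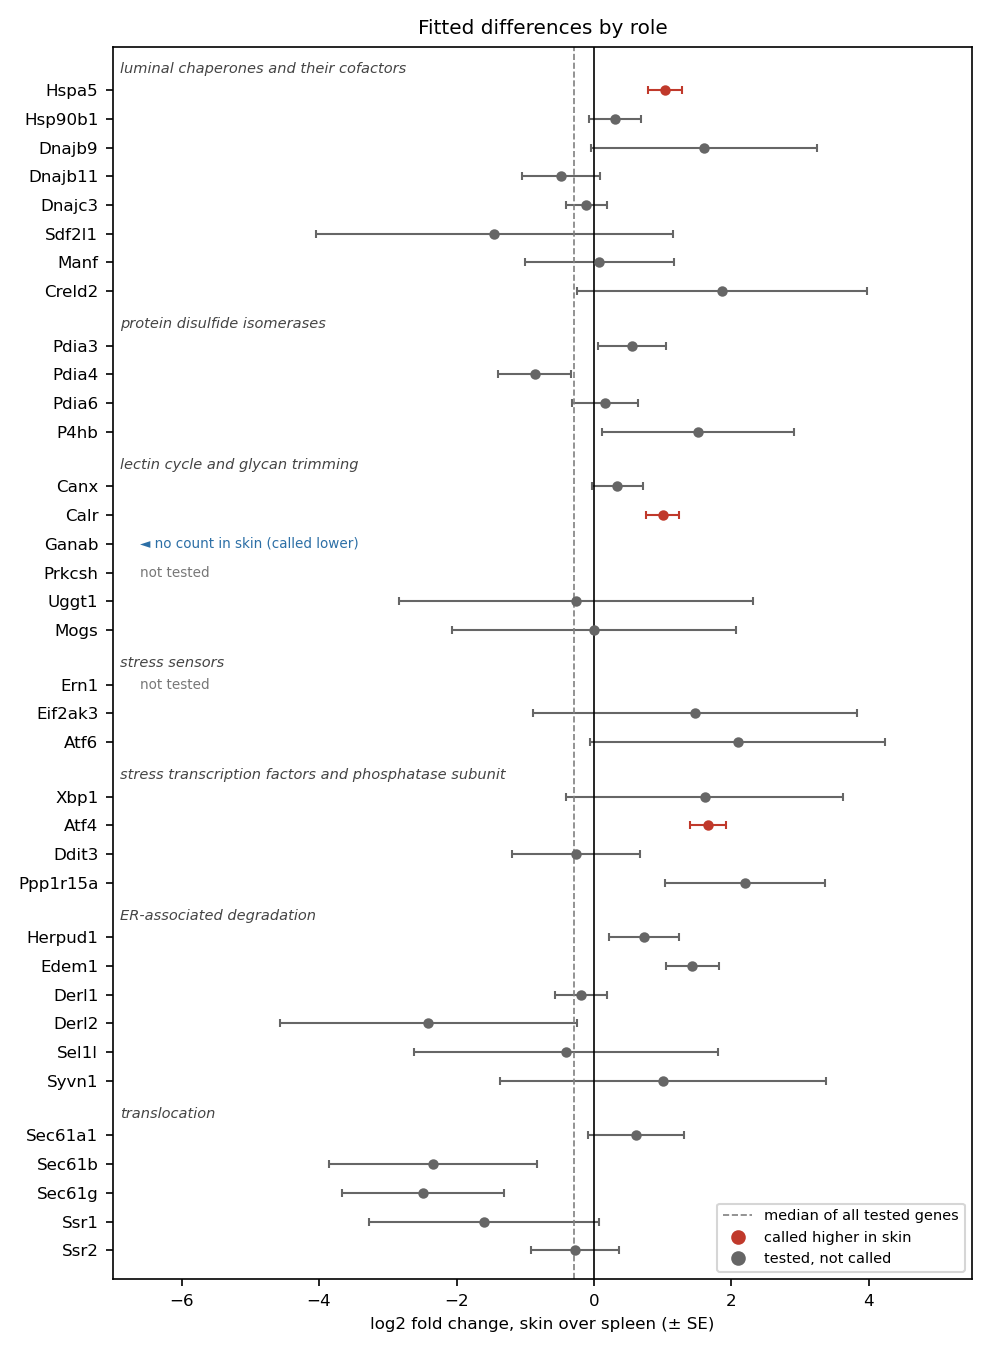
Fitted log2 fold change, skin over spleen, with its SE for each tested gene, grouped by role; red marks genes called higher in skin, and the dashed line is the median of all tested genes at -0.29. Atf4, Calr and Hspa5 have short bars to the right of 0, 4 of the 5 translocation genes lie left of it, and Ganab is written in because it had no count in skin.

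A wider list of 113 other genes of the same pathways, of which 96 were tested, gave 3 higher and 3 lower, beside the 1.85% and 3.58% of all genes; 47 lay above 0 and 49 below, with a median of -0.04. The 3 higher genes were all on the list of stress signalling and ATF4 targets (3 of 23 tested). That list held 35 genes, and 12 of them were not tested. Of the 23 tested, 20 did not pass, and 14 lay above 0 and 9 below, with a median log2 fold change of 0.32. Slc3a2, the heavy chain of amino acid transporters and an ATF4 target, had 1096, 1171, 1139 and 1491 CPM in skin, against 84.9, 126, 252 and 306.5 CPM in spleen. The tissues lay far apart (log2 fold change 2.67 ± 0.411, SE; adjusted p = 0.0137 by edgeR), and the call held in 7 of 8 fits without 1 library. It was lost without spleen replicate 2 (adjusted p 0.0138 to 0.0566 over the 8 fits).

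Tmbim6, an ER membrane protein that restrains cell death and IRE1, had 440, 610, 448 and 313 CPM in skin, against 58.2, 149, 83.5 and 97.1 CPM in spleen (log2 fold change 2.22 ± 0.408, SE; adjusted p = 0.0301 by edgeR; called in 2 of 8 fits without 1 library). Cebpb, a leucine zipper factor that pairs with ATF4, had 239.5, 372.5, 645 and 429 CPM in skin, against 53.8, 103, 52.3 and 156.5 CPM in spleen (edgeR adjusted p = 0.0473; called in 0 of 8 such fits). For both genes the tissues did not overlap.

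The 3 lower genes had no count in skin, as had 182 of the 248 genes called lower in the whole table. Cnpy2 and Cnpy3, saposin-like ER proteins of which Cnpy3 helps fold Toll-like receptors, averaged 71.8 ± 31.5 and 75.4 ± 25 CPM in spleen. Erlec1, a lectin of ER-associated degradation, averaged 62.1 ± 39.6 CPM in spleen. Each had an edgeR adjusted p of 0.0473 and was called in 0 of the 8 fits without 1 library. Set against the same floor of 3 counts in each skin library, the spleen means of Cnpy2, Cnpy3 and Erlec1 were 186-, 195- and 160-fold higher. Here too the floor covers counting error alone, so these folds are not lower bounds.

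Of the 12 oligosaccharyl transferase genes, which attach the glycan, 0 were called. Ost4, a small subunit, came closest at 49.2 ± 45.9 CPM in skin, against 247 ± 45.3 CPM in spleen (edgeR adjusted p = 0.187). Dad1 averaged 472 ± 94.5 CPM in skin, against 325 ± 50.3 CPM in spleen, and the catalytic subunit Stt3b 351 ± 275 CPM in skin, against 148 ± 99.2 CPM in spleen. Of the 20 signal recognition and signal peptidase genes 0 were called either. The nearest, Srpr, the receptor of the signal recognition particle, averaged 81.4 ± 81.4 CPM in skin, against 287 ± 78.8 CPM in spleen (edgeR adjusted p = 0.889). Ssr3, another subunit of the translocon-associated complex, averaged 237 ± 160 CPM in skin, against 68.6 ± 66.1 CPM in spleen, and Sec62 127 ± 37.6 CPM in skin, against 53.0 ± 33.7 CPM in spleen.

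Cells with a large ER were looked for through their markers. Of 7 plasma cell markers, 2 had a count in skin and 4 in spleen, with sums of 0 to 135 CPM in skin, against 10.1 to 37.9 CPM in spleen. Igj, which encodes the joining chain of secreted antibody, was at 0 in all skin libraries, as were Tnfrsf17, Irf4 and Fkbp11, and the skin sum was nearly all Sdc1, which epithelial cells also express. Of 8 fibroblast markers, 3 had a count in skin and 0 in spleen, with sums of 0 to 168 CPM in skin. The 3 were Sparc (up to 136 CPM), Dcn (up to 31.9 CPM) and Col1a1 (up to 18.6 CPM), while Col1a2, Col3a1 and Pdgfra were at 0 throughout. The 7 mast cell markers were at 0 in all 8 libraries. In skin replicate 4, where fibroblast markers were at 0 and keratinocyte markers at their skin minimum of 273 CPM, Hspa5 had 2814 CPM and Atf4 610 CPM, while Calr (774 CPM) and Tmbim6 (313 CPM) had their lowest skin values. In skin replicate 3, with the most keratinocyte signal at 1032 CPM, Hspa5 (2861 CPM) and Atf4 (665 CPM) had their highest. In skin replicate 1, where keratinocyte markers summed to 891 CPM, Hspa5 (1661 CPM) and Atf4 (403 CPM) had their lowest skin values. Calr (1420 CPM) and Tmbim6 (610 CPM) were highest in skin replicate 2, where keratinocyte markers summed to 334 CPM. The part of keratinocyte RNA in the higher genes was not tested. Markers of other cells were found in spleen too. B cell markers summed to 48.9 to 235 CPM in spleen, against 0 to 76.1 CPM in skin. Erythroid markers summed to 111 to 274 CPM in spleen, against 0 to 2.12 CPM in skin. The part of B cell and erythroid RNA in the genes lower in skin was not tested.

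**Figure D5:**
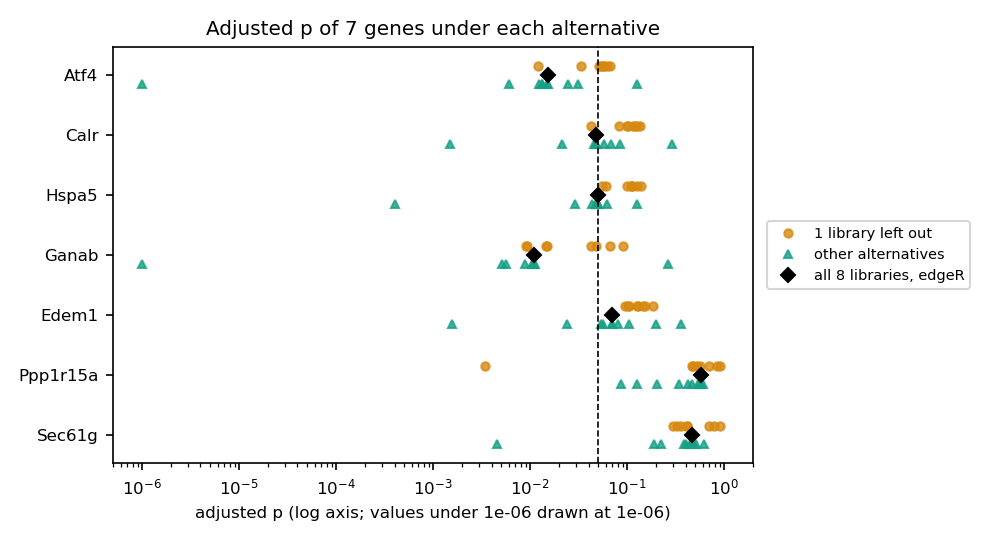
Adjusted p (log axis) of 7 genes with all 8 libraries in edgeR (diamonds), in the 8 fits without 1 library (orange circles) and under the other alternatives (green triangles); the dashed line is 0.05. The points of Hspa5, Calr and Atf4 fall on both sides of the line, those of Sec61g mostly to its right, and Ppp1r15a crosses it without spleen replicate 4.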

How the data were processed

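RNA of skin and spleen iNKT cells was turned into cDNA with a full-length low-input kit (SMART-Seq v4) and sequenced as paired 75 bp reads, per the labels' protocols. The authors deposited 1 table of expected counts for each gene, estimates in which RSEM divides ambiguous reads between genes. RSEM is named in the submitters' processing notes beside FastQC, DESeq2 1.16.1 and mouse build mm9, with no role stated. Aligner, annotation and filters: not given in the sources used here. Since the kit does not mark strand, overlapping, antisense and paralogous genes are uncertain. Columns were matched to libraries by the labels' descriptions, with 0 columns unused.

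Expected counts were rounded. With edgeR 4.0.16 (R 4.3.3), filterByExpr on tissue left 6920 genes, TMM factors were computed, and tissue was tested alone in a robust quasi-likelihood model, with Benjamini-Hochberg adjustment and a threshold of 0.05 (common dispersion 2.94, 6 residual degrees of freedom). The SE is the log2 fold change divided by the square root of F. A floor of 3 counts is 0.292 to 0.454 CPM; without molecular identifiers on the reads, this covers counting error alone. Alternatives used limma 3.58.1 and DESeq2 1.42.0 among others. No pair of libraries agreed within sampling noise (smallest chi-square per degree of freedom 118).

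The genes, the wider lists and the rule for naming genes were chosen with earlier results of these data known. The rule names all 36 genes, the wider-list genes that were called, and otherwise the 3 with the smallest adjusted p of a list; of the 251 symbols listed, markers included, 250 were found in the table, a few under older symbols. Transcript lengths (GENCODE M21) and the level class of 150 to 300 CPM were chosen after the values were seen; 97.1% of tested genes had a length.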

Additional observations from a re-analysis of the deposited data

Results flagged for a closer look

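In 8 of 70 groups of 4 libraries, 1 library lay apart from the other 3 beyond Dixon's 95% critical value. Chance gives this in about 1 group of 20 where values are normally distributed and groups independent. These CPM hold zeros and the groups share the same 8 libraries, so that rate need not hold here. In skin, Manf was at 194.5 CPM in replicate 3 and 39.7 to 52.1 CPM in the others, and Ern1 at 93.65 CPM in replicate 3 and 0 to 2.54 CPM in the others. In spleen, replicate 4 held Ppp1r15a at 1131 CPM (19.3 to 55.6 CPM in the others) and Ern1 at 15.16 CPM (0 in the others). Spleen replicate 1 held Ddit3 at 236.3 CPM (61.2 to 75.2 CPM in the others), Sel1l at 134.1 CPM (39.8 to 53.7 CPM) and Sec61g at 43.35 CPM (126 to 140 CPM). Sdf2l1 was at 0 in spleen replicate 2 and 63.6 to 71.7 CPM in the others.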

How the results depend on the processing

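Of 603 recomputed log2 fold changes of the 34 tested genes, 533 kept their direction and side of the threshold, 32 lost a call, 4 gained one and 34 changed sign. Hspa5 lost its call with library totals (edgeR adjusted p = 0.0619), counts rounded down (0.05) and the replicate block (0.125). Calr lost it with library totals (edgeR adjusted p = 0.0674), no filter (0.085), the block (0.292) and the added restriction given below (0.0573). The genes called higher numbered 3 with TMM, DESeq2's size factors, upper-quartile scaling and the filter of 5 CPM in 4 libraries, 4 in DESeq2 and limma-voom (with Edem1), and 1 with library totals only, which moved the median of all genes from -0.29 to -0.44. That median was -0.70 with no filter, -2.06 in limma-voom, -0.99 with the block and 0.02 under the added restriction, and over the ER genes tested it was 0.24, -0.01, 0.05 and 0.32 in the same order. Leaving out 1 library gave 0 to 2 higher and 0 to 1 lower of the 36, 1 to 2 higher and 0 to 1 lower wider-list genes, and 47 to 102 higher and 17 to 111 lower genes in all. DESeq2 called 2 of the 36 lower (Ganab and Sec61g), 5 higher and 5 lower wider-list genes, and 295 higher and 447 lower in all. Limma-voom called 5 and 5 wider-list genes and 207 higher and 500 lower in all. Without a filter 0 wider-list genes and 48 in all were lower. Among genes with a count in 3 libraries of each tissue, a restriction added after seeing the data, 0 of the 36, 0 wider-list genes and 46 in all were lower, since genes at 0 in skin leave the test.

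With the replicate block, 0 of the 36 were called in either direction (edgeR; Atf4 adjusted p = 0.125), 1 wider-list gene was higher (Slc3a2) and 0 lower, and 36 and 14 genes in all were higher and lower. Deviations of same-numbered libraries from their tissue means had correlations of -0.002 to 0.016, and 2 of 4 skin libraries correlated best with their own number. Every correlation between a skin and a spleen library lay between -0.028 and 0.042. With values this small the check cannot tell whether same-numbered libraries belong together.

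Signs changed only among uncalled genes. Manf was -0.08 with library totals, -0.05 in limma-voom, -0.06 with the block and -0.78 to 0.37 without 1 library. Mogs, at 0.00, was 0.09 with DESeq2's size factors and in DESeq2, 0.05 with upper-quartile scaling, 0 without a filter, 0.02 under the added restriction and -0.62 to 0.38 without 1 library. In limma-voom Xbp1 was -0.51, Ddit3 0.19, Derl1 0.12, Syvn1 -1.43 and Sec61a1 -0.07. With the block Uggt1 was 0.64 and Syvn1 -0.49. Without 1 library Uggt1 ran from -0.92 to 0.47, Pdia6 from -0.08 to 0.40, Ddit3 from -0.78 to 0.44, Derl1 from -0.36 to 0.10, Sel1l from -1.58 to 0.15, Sec61a1 from -0.34 to 0.91 and Ssr2 from -0.48 to 0.04. The cause was not tested. Zeros limit the weakly detected genes: 26.1% to 32.6% of tested genes were at 0 in a skin library and 0.78% to 22.4% in a spleen library.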

Other observations

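Ratios of 2 genes within a library depend on the scaling only through the 1 CPM added, and those given here were chosen after the values were seen. Hspa5 over Pdia4, on the log2 scale with 1 CPM added, was 2.69, 5.03, 4.96 and 3.47 in skin replicates 1 to 4, against 2.17, 1.95, 1.71 and 1.98 in spleen replicates 1 to 4. Calr over Canx was 1.68, 2.74, 2.61 and 1.48 in skin, against 1.89, 1.20, 1.59 and 1.45 in spleen, and overlapped. Sec61a1 over Sec61g was 3.26, 5.54, 4.14 and 2.42 in skin, against 2.07, 0.73, 1.08 and 1.65 in spleen. Atf4 over Ddit3 was 1.24, 3.68, 3.06 and 3.18 in skin, against -0.41, 1.26, 1.71 and 1.41 in spleen, overlapping through skin replicate 1. These ratios compare the same genes across tissues and say nothing of which gene is more abundant.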
